A study of Mus musculus with 20 samples.

Results

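A group of 9 genes of the insulin-like growth factor (IGF) system was followed in mouse cardiac fibroblasts after myocardial infarction. The genes were taken by symbol from a table of 25746 genes. They were the ligand genes Igf1 and Igf2, the receptor gene Igf1r, and the binding protein genes Igfbp2, Igfbp3, Igfbp4, Igfbp5, Igfbp6 and Igfbp7. All 9 were among the 14968 genes that passed the filter on low counts. For accessible chromatin, every region within a member's gene span or 50 kb to either side was taken, which gave 169 of 143246 regions.

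IGF1 and IGF2 are secreted peptides that act through the receptor tyrosine kinase IGF1R, which signals through the insulin receptor substrates to PI3K and AKT and promotes growth and survival. The binding proteins hold the ligands in serum and matrix, limit or prolong their access to the receptor, and are themselves cut by proteases that free the ligand. In the heart, fibroblasts are a source of IGF1 and of several binding proteins.

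The cells were cardiac fibroblasts of the Tcf21 lineage, sorted by flow cytometry from digested mouse hearts as eGFP+ cells, with the gate set on eGFP- cells of wild-type (WT) mice. The groups were uninjured hearts and hearts taken on day 3, on day 7, in week 2 and in week 4 of the course that follows a myocardial infarction (MI). In all groups, uninjured included, a MerCreMer recombinase was activated by intraperitoneal tamoxifen in corn oil at 75 mg/kg per day for 5 days, so none of the groups is free of tamoxifen or Cre. The label marks cells that carried active Cre at tamoxifen treatment and their descendants, whatever they express later. RNA-seq used 10000 sorted cells per library, and ATAC-seq cut open chromatin with the Tn5 transposase. Each group had 2 libraries per assay, and the labels give neither the age or sex of the mice nor whether both libraries of each group represent different mice. The p-values therefore measure the spread between these libraries, which may be technical.

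The RNA libraries held 16397211 to 21043997 expected counts, of which the 9 genes took 0.139% to 0.732%. All 13 fibroblast markers had counts in every library, Tcf21 among them, and their summed level was 43592 and 27429 CPM at day 3 against 68956 and 69989 CPM in uninjured hearts. Single markers of this list went both ways: 4 rose and 6 fell at day 3 by edgeR's adjusted p, and 4 rose and 4 fell at day 7. The 18 macrophage markers summed to 729 and 1209 CPM at day 3 and 1859 and 3340 CPM at day 7, against 77.8 and 92.4 CPM in uninjured hearts, where 1 and 2 of them were at 0. By edgeR's adjusted p, 13 of them rose at day 3 and 16 at day 7. The 16 endothelial markers summed to 571 and 414 CPM at day 3 and 1181 and 1546 CPM at day 7, against 1055 and 898 CPM in uninjured hearts, and the 12 mural cell markers to 274 and 198, 725 and 1087, against 997 and 469 CPM. By edgeR's adjusted p, 7 endothelial markers fell and 0 rose at day 3, and 6 rose and 1 fell at day 7. Cardiomyocyte markers stood at 40.5 to 218 CPM, mesothelial and epicardial markers at 5.26 to 163 CPM, and lymphocyte, neutrophil and Schwann cell markers at 15.6 CPM or less. Y-linked genes held 0.0124% to 0.0429% of a library's counts at week 2 (both replicates), in replicate 2 of week 4 and of day 7, and in replicate 1 of day 3. They took at most 6.24e-05% elsewhere, including both uninjured libraries. The part of other cell types and of the animals' sex in the results that follow was not tested. In such sorted bulk samples, fewer cells of a type and less RNA per cell cannot be told apart.

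**Figure D1:**
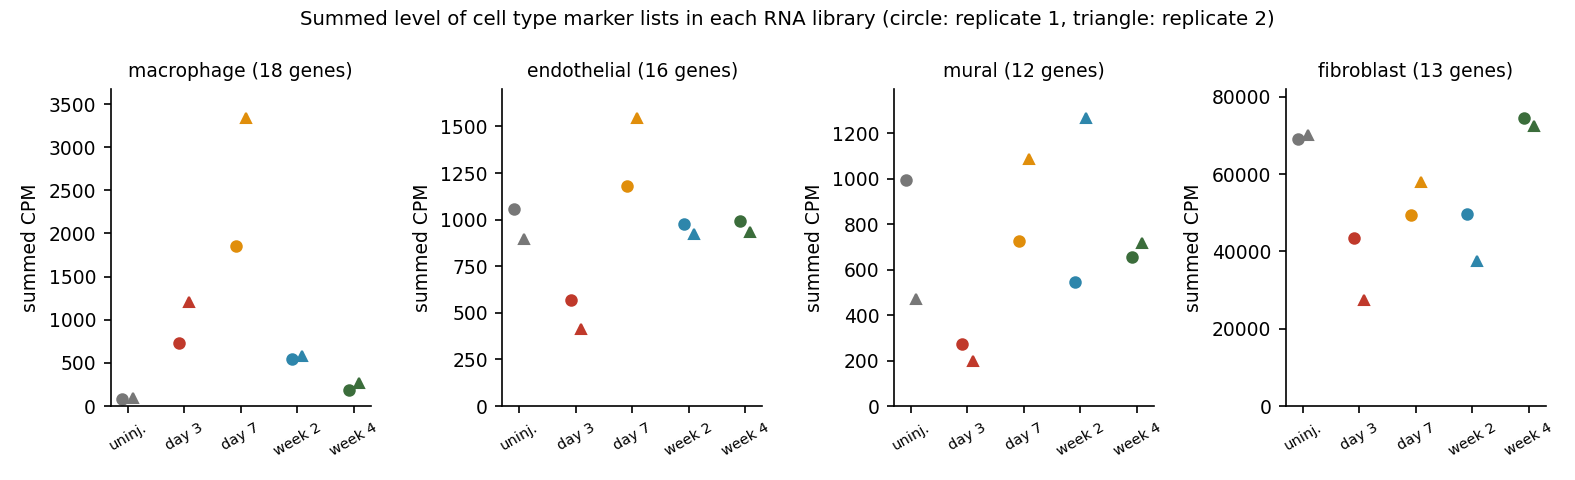
Summed CPM (y axis, linear) of 4 marker lists in each RNA library by time (x axis), with circles for replicate 1 and triangles for replicate 2. The macrophage sum was highest in the day 7 libraries, at 1859 and 3340 CPM, and the fibroblast sum lowest in day 3 replicate 2, at 27429 CPM.

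The starts of the IGF genes were mostly open at all times. A region spanning the start site annotated by RefSeq (GRCm38.p6) had a peak in all 10 libraries for Igf1, Igf1r, Igfbp3, Igfbp4, Igfbp5, Igfbp6 and Igfbp7. The sequences shown are the 250 bases before the RefSeq start of the 5 genes whose RNA differed among the groups, read 5′ to 3′ on the gene's strand and credited to RefSeq. Capitals mark matches, on either strand, to the letters of a GC box, a TATA box, a CCAAT box or a RUNX motif, spelled out after the sequences. No matches overlapped in these windows.
Igfbp3, chr11:7213924-7214173, minus strand: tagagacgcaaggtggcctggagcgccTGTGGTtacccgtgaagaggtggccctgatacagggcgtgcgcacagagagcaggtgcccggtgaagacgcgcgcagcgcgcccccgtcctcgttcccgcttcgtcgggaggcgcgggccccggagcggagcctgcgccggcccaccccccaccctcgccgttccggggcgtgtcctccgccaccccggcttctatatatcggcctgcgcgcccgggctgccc
Igfbp4, chr11:99040994-99041243, plus strand: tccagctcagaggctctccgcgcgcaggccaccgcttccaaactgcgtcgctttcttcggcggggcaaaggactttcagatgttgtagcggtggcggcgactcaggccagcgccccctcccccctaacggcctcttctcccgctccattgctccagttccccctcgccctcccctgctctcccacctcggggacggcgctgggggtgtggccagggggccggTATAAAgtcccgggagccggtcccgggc
Igfbp6, chr15:102143936-102144185, plus strand: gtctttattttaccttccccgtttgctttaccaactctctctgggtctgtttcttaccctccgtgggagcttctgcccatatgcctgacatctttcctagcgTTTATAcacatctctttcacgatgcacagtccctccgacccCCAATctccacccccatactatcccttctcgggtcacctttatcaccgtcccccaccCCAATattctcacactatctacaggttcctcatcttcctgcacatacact
Igfbp7, chr5:77408046-77408295, minus strand: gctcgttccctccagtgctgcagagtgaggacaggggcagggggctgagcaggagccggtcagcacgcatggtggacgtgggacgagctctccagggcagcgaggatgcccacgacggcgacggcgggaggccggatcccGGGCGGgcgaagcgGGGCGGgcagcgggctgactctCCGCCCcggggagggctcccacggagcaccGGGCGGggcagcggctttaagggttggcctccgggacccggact
Igfbp2, the upstream start, chr1:72824230-72824479, plus strand: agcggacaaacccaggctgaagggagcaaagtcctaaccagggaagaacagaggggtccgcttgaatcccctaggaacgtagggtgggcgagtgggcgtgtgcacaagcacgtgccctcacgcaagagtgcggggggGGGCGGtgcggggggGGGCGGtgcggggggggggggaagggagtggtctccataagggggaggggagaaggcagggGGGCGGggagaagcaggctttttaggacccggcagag

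The windows differed in base composition. The Igfbp7 window held 74.0% G and C and 26 CpG dinucleotides, the Igfbp3 window 73.2% and 32, the Igfbp4 window 69.2% and 22, and the Igfbp2 window 67.2% and 14, while the Igfbp6 window held 49.6% and 7. The median over 32585 mouse promoter windows of the same length was 52.4% and 6. Of 8 motifs searched on both strands, the TATA box letters TATAAA were in 12.4% of those windows and CCAAT in 34.0%. The GC box letters GGGCGG were in 32.9%, and the RUNX letters TGTGGT in 13.9%. The letters TGANTCA (AP-1), in 6.78% of all windows, were in the Igf1 window and in that of the downstream Igfbp2 start, and GGAATG (TEAD), in 12.6%, in those of Igfbp5 and Igf2. The letters GTCTAGAC (SMAD) and TGACGTCA (CREB), in 0.169% and 1.56% of all windows, were in 0 of the 13 member windows. These matches describe the letters only. Peaks covered the printed Igfbp3, Igfbp4, Igfbp6 and Igfbp7 windows in all 10 libraries. The printed Igfbp2 window was covered in both day 3 libraries and in none of the other 8.

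Igfbp3, a carrier of IGFs in serum and tissue, had the largest fall of the 9 genes (ENSMUSG00000020427; chromosome 11, 7206086 to 7213923, minus strand). In CPM, the count of a gene per library total after TMM scaling in edgeR, the libraries stood at 186 and 247 in uninjured hearts, 16.9 and 3.71 at day 3, 50.4 and 21.2 at day 7, 91.3 and 82.9 at week 2, and 121 and 139 at week 4. Every library after MI was below both uninjured libraries, and each time stood above the one before it from day 3 on, with no overlap. At day 3 Igfbp3 averaged 10.3 ± 9.34 CPM against 217 ± 43.4 CPM in uninjured hearts (SD, n = 2 each), 21.0-fold lower, with a log2 fold change of −4.39 ± 0.67 (SE; edgeR quasi-likelihood adjusted p = 0.0034). This call held without any 1 of the 10 libraries, with log2 fold changes of −5.87 to −3.70 and adjusted p of at most 0.049 in edgeR. At day 7 it averaged 35.8 ± 20.7 CPM, a log2 fold change of −2.60 ± 0.62 against uninjured hearts (edgeR adjusted p = 0.036). Leaving out replicate 2 of day 7, or any 1 library of uninjured hearts, week 2 or week 4, ended the day 7 call. At week 2 and week 4 the log2 fold changes were −1.32 ± 0.59 and −0.74 ± 0.58, which did not pass (edgeR adjusted p = 0.48 and 0.68).

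Against day 3, Igfbp3 was higher at both later stages, in contrasts added after the data were seen. It averaged 87.1 ± 5.93 CPM at week 2 against 10.3 ± 9.34 CPM at day 3, a log2 fold change of 3.08 ± 0.64 (edgeR adjusted p = 0.017). At week 4 it averaged 129.9 ± 12.3 CPM, a log2 fold change of 3.66 ± 0.65 against day 3 (edgeR adjusted p = 0.0070). Leaving out any 1 library of week 2 or uninjured hearts, or replicate 2 of week 4, ended the week 2 call, and leaving out any 1 library of week 4 ended the week 4 call.

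Igfbp2 (ENSMUSG00000039323; chromosome 1, 72824503 to 72852474, plus strand), a binding protein best known from fetal tissue and serum, moved the other way. Its counts were 0 and 0 in uninjured hearts, 21 and 0 at day 3, 201 and 153 at day 7, 247 and 406 at week 2, and 14 and 69 at week 4. Both libraries of day 7, week 2 and week 4 were above both uninjured libraries, and the day 3 libraries overlapped them. Set against a floor of 3 counts per uninjured library, the group mean of 9.56 ± 0.471 CPM at day 7 was at least 59.6-fold higher, that of 18.3 ± 6.46 CPM at week 2 at least 114-fold higher, and that of 2.11 ± 1.76 CPM at week 4 at least 13.2-fold higher. The rise passed at day 7 (edgeR adjusted p = 0.016) and at week 2 (edgeR adjusted p = 0.024), but not at week 4 (edgeR adjusted p = 0.081). Leaving out any 1 uninjured library ended both calls, as did leaving out replicate 2 of day 7 for the first and replicate 2 of week 2 for the second. The macrophage marker sum was 539.9 and 583 CPM at week 2, when Igfbp2 was highest, and 1859 and 3340 CPM at day 7. The 10 mesothelial and epicardial markers summed to 163 and 41.5 CPM at week 2, with 1 and 3 of them at 0, against 9.28 and 5.52 CPM in uninjured hearts, with 4 and 6 at 0. They summed to 9.38 and 44.1 CPM at day 3, 38.7 and 7.24 at day 7, and 5.26 and 9.35 at week 4. By edgeR's adjusted p, 0 of the 10 rose or fell at week 2 (1.89% of all genes). The part of either cell type in the Igfbp2 level was not tested.

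Igfbp4, which binds both ligands and is the main substrate of the protease PAPP-A, stood highest at week 4 (ENSMUSG00000017493; chromosome 11, 99041244 to 99054392, plus strand). Its levels were 286 and 277 CPM in uninjured hearts, 219 and 77.9 at day 3, 254 and 262 at day 7, 240.2 and 231 at week 2, and 556 and 486 at week 4. Both week 4 libraries were above all other libraries, while the day 3 libraries stood far apart from each other. At week 4 Igfbp4 averaged 521 ± 49.5 CPM against 148 ± 99.5 CPM at day 3, a log2 fold change of 1.81 ± 0.36 (edgeR adjusted p = 0.0073), a call that held without any 1 of the 10 libraries (1.27 to 2.74). Against uninjured hearts, at 282 ± 5.74 CPM, the week 4 log2 fold change was 0.89 ± 0.35 and did not pass (edgeR adjusted p = 0.30). The Igfbp4 locus was the only one of the 9 at which no region was gained or lost at any time by the peak rule given with the chromatin results.

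Igfbp6, a binding protein that prefers IGF2 (ENSMUSG00000023046; chromosome 15, 102144362 to 102149511, plus strand), followed a similar course. It stood at 425 and 648 CPM in uninjured hearts, 255 and 94.1 at day 3, 311 and 174 at day 7, 682 and 311 at week 2, and 988 and 977 at week 4. The week 4 libraries were again the highest, and both day 3 and both day 7 libraries were below both uninjured libraries. Here too, week 4 was set against day 3 only after the data were seen. At week 4 the mean was 983 ± 7.76 CPM against 174 ± 114 CPM at day 3, a log2 fold change of 2.5 ± 0.53 (edgeR adjusted p = 0.015). Leaving out replicate 2 of day 3, or any 1 library of week 4 or uninjured hearts, ended this call. At day 3 the log2 fold change against uninjured hearts was −1.62 ± 0.52, which did not pass (edgeR adjusted p = 0.077).

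Igfbp7, a secreted protein of matrix and vessels that binds IGFs weakly, also rose between day 3 and the later stages (ENSMUSG00000036256; chromosome 5, 77349240 to 77408041, minus strand). It stood at 1897 and 1224 CPM in uninjured hearts, 1135 and 753 at day 3, 1776 and 1752 at day 7, 2272 and 2304 at week 2, and 5284 and 2331 at week 4. The week 4 libraries differed from each other by more than any other group's, and the lower of them lay just above week 2. For Igfbp7 as well, the contrasts of week 2 and week 4 with day 3 were added after the data were seen. Its mean was 2288 ± 22.5 CPM at week 2 against 944 ± 270.0 CPM at day 3, a log2 fold change of 1.28 ± 0.35 (edgeR adjusted p = 0.042). At week 4 it was 3808 ± 2088 CPM, a log2 fold change of 2.01 ± 0.36 against day 3 (edgeR adjusted p = 0.0042). The week 2 call was lost without day 3 replicate 2, either day 7 library or either week 2 library, and the week 4 call without day 3 replicate 2, at an adjusted p of 0.050 in edgeR. Igfbp7 overlaps Polr2b by 85 bp, and both carried fractional counts, so their split of shared reads is uncertain. Endothelial and mural marker sums were also lowest at day 3 and higher later. Unlike Igfbp7, they were not highest at week 4. The endothelial sum was 1181 and 1546 CPM at day 7 and 991 and 934 CPM at week 4. The mural sum was 725 and 1087 CPM at day 7 and 655 and 717 CPM at week 4. The part of these cell types in the Igfbp7 level was not tested.

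Igfbp5, a matrix-bound binding protein (ENSMUSG00000026185; chromosome 1, 72857932 to 72874884, minus strand), passed no test in the main edgeR fit. Its libraries stood at 124 and 83.0 CPM in uninjured hearts, 84.6 and 35.3 at day 3, 43.8 and 39.8 at day 7, 39.2 and 75.8 at week 2, and 102 and 85.5 at week 4. Only at day 7 and week 2 were both libraries below both uninjured libraries. The day 7 log2 fold change was −1.31 ± 0.41 (edgeR adjusted p = 0.084).

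In the main edgeR fit, with the filter on low counts, none of the ligand and receptor genes passed a test against uninjured hearts. Without that filter edgeR called 7 of the 9 members at day 3 (14% of all genes), a count that must take in a ligand or receptor gene. Which of them passed there is not given. Igf1 (ENSMUSG00000020053; chromosome 10, 87858265 to 87937042, plus strand) stood at 613 and 466 CPM in uninjured hearts, 404 and 369 at day 3, 713 and 489 at day 7, 722 and 459 at week 2, and 314 and 492 at week 4. Groups next to each other in the order of means overlapped, and only at day 3 were both libraries below both uninjured libraries. Its largest log2 fold change against uninjured hearts was −0.48 ± 0.29 at day 3 (edgeR adjusted p = 0.33).

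Igf2, an imprinted ligand gene (ENSMUSG00000048583; chromosome 7, 142650766 to 142666816, minus strand), stood at 23.2 and 23.3 CPM in uninjured hearts, 10.3 and 5.04 at day 3, 22.7 and 23.1 at day 7, 11.5 and 6.53 at week 2, and 8.48 and 11.8 at week 4. Levels at day 7 were within 1 CPM of those in uninjured hearts, and all day 3, week 2 and week 4 libraries were lower. The log2 fold changes against uninjured hearts were −1.60 ± 0.52 at day 3, −1.36 ± 0.52 at week 2 and −1.20 ± 0.51 at week 4, none of which passed (edgeR adjusted p = 0.066, 0.30 and 0.34). The predicted gene Gm49394, which overlaps Igf2, had 0 counts throughout.

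Igf1r (ENSMUSG00000005533; chromosome 7, 67952827 to 68233668, plus strand) stood at 58.0 and 60.0 CPM in uninjured hearts, 39.8 and 39.5 at day 3, 71.4 and 56.6 at day 7, 55.2 and 50.1 at week 2, and 51.9 and 67.1 at week 4. The day 3 libraries were the lowest and lay close together. Its day 3 log2 fold change was −0.57 ± 0.26, which did not pass (edgeR adjusted p = 0.20).

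**Figure D2:**
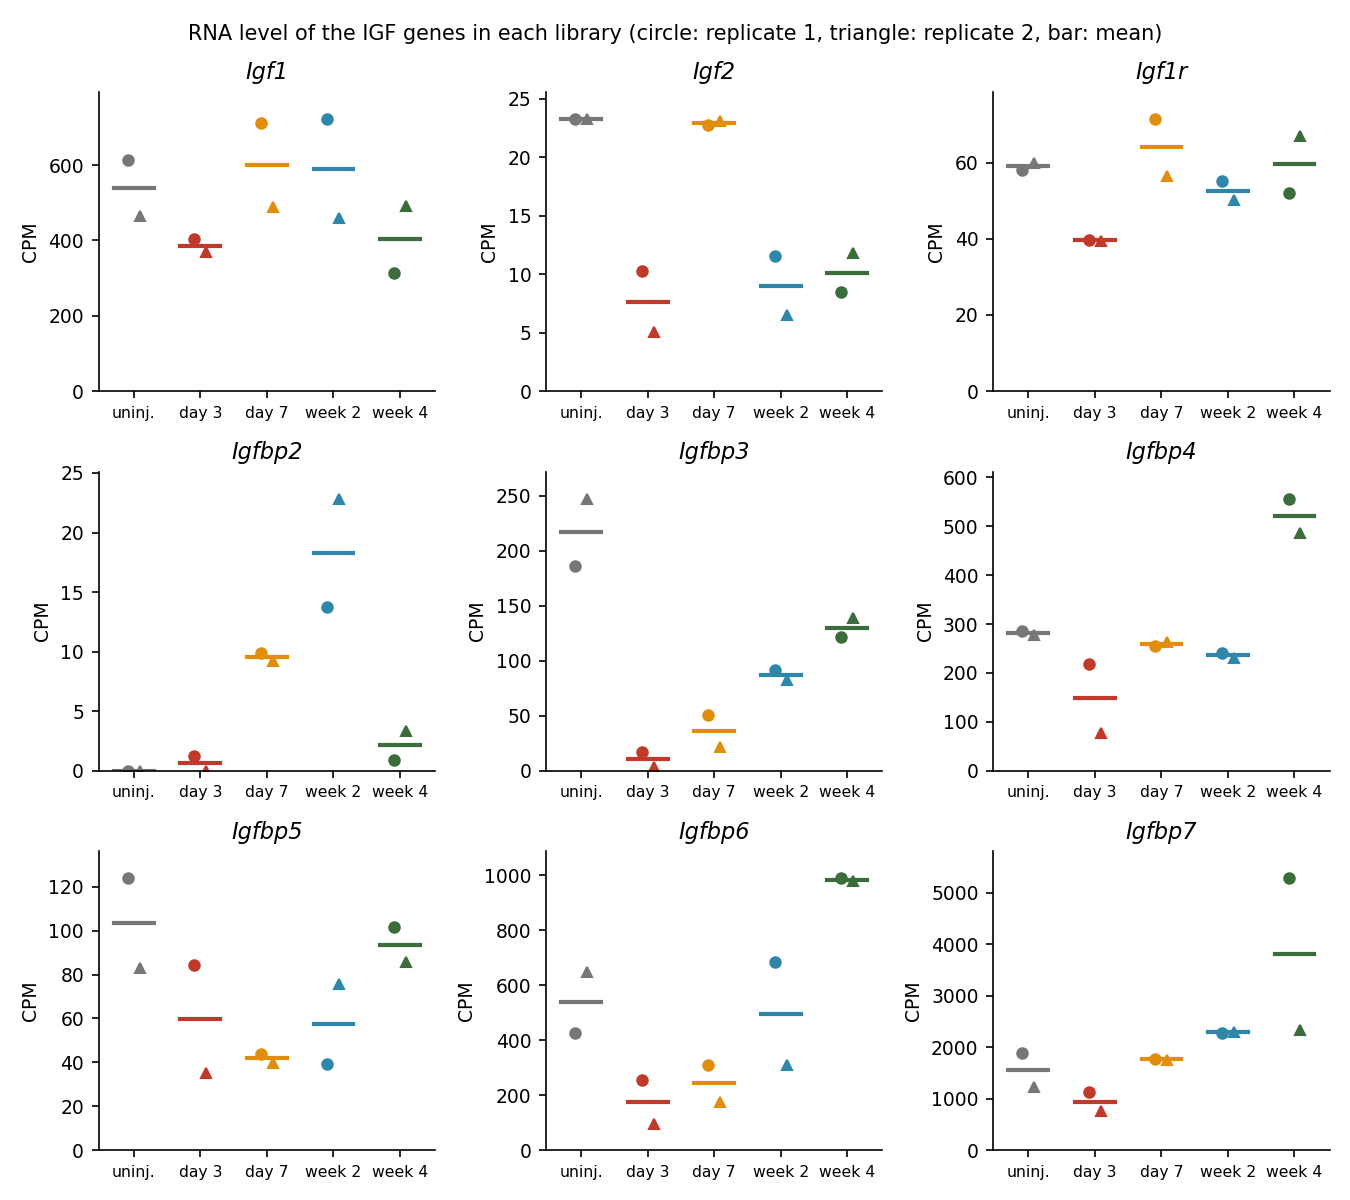
RNA level of each of the 9 genes in CPM (y axis, linear, from 0) by time (x axis); circles are replicate 1, triangles replicate 2 and bars the mean of the 2 libraries. Igfbp3 fell to 16.9 and 3.71 CPM at day 3, Igfbp2 had counts in both libraries of day 7, week 2 and week 4, and Igfbp4 and Igfbp6 were highest at week 4.

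Over all 5 groups, 5 of the 9 genes differed in edgeR's quasi-likelihood test, namely Igfbp2, Igfbp3, Igfbp4, Igfbp6 and Igfbp7, against 15.7% of all genes tested. Their adjusted p ran from 0.010 for Igfbp3 to 0.042 for Igfbp6. Igf1, Igf2, Igf1r and Igfbp5 did not pass, and the lowest adjusted p among them was 0.080, for Igf2 (edgeR).

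In the order of group means, neighbouring groups did not differ for any of the 9 genes, with edgeR adjusted p of 0.083 or more. Igfbp3 and Igfbp4 had no overlap between neighbours. The order was set by the same values, and the share of all genes without such overlap is not given, so this describes the libraries only. The order of Igfbp3 ran down through uninjured hearts, week 4, week 2, day 7 and day 3, and that of Igfbp4 through week 4, uninjured hearts, day 7, week 2 and day 3. For Igf1 the libraries of all neighbouring groups overlapped.

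At day 3, 1 gene of the 9 had fallen and 0 had risen in edgeR (4.4% and 7.39% of all genes tested). The median log2 fold change of the 9 was −0.79, against −0.02 over all genes. Both libraries were below both uninjured libraries for 7 of the 9 (30.6% of all genes) and above them for 0 (29.5%). All 9 stood lower in day 3 replicate 2 than in replicate 1, as did 51.9% of all genes, and replicate 2 also had the lower fibroblast and the higher macrophage sum. The count of calls was larger with either day 3 library or either week 2 library left out. For this and later fits with 1 library left out, the share of all genes called also moved with the library. These changes were therefore not read as traits of the 9 genes. DESeq2 called 5 of the 9 (20.1% of all genes in DESeq2), and 6 had an unadjusted p under 0.05 in edgeR. For this and later counts at an unadjusted p, the share of all genes at that threshold is not given.

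At day 7, 1 of the 9 had risen and 1 had fallen in edgeR (4.39% and 2.76% of all genes), with a median log2 fold change of −0.02 against 0 over all genes. Both libraries were below both uninjured ones for 5 (27.7% of all genes) and above for 1 (27.3%). Both day 7 calls ended with replicate 2 of day 7 or any 1 uninjured library left out. The count of calls was smaller without week 2 replicate 1 or either week 4 library, and larger without either day 3 library. At week 2, 1 had risen and 0 had fallen (1.44% and 0.454% of all genes), with both libraries below both uninjured ones for 5 (22.4% of all genes) and above for 2 (19.3%). The week 2 call ended with replicate 2 of week 2 or any 1 uninjured library left out. At week 4, 0 of the 9 passed in edgeR (2.32% of all genes), while 4 had an unadjusted p under 0.05 and DESeq2 called 2 (6.46% of all genes in DESeq2). Both week 4 libraries were above both uninjured ones for 4 and below for 2 (25.6% of all genes in each direction). The week 4 count was larger with either day 3 library or week 4 replicate 2 left out.

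Between consecutive stages, edgeR called 0 of the 9 at day 7 against day 3 (1.38% of all genes), 0 at week 2 against day 7 (0.648%) and 0 at week 4 against week 2 (0.608%). At an unadjusted p under 0.05, 7, 1 and 2 genes passed in edgeR, with no share of all genes at that threshold to set beside them. DESeq2 called 3, 0 and 1 (6.96%, 7.24% and 6.42% of all genes in DESeq2). At week 4 against day 7 edgeR also called 0 (2.42% of all genes), with 6 at an unadjusted p under 0.05 and 3 called by DESeq2 (9.05% of all genes in DESeq2). Week 2 and week 4 were set against day 3 after the data were seen, when day 3 was known to be low. In these added contrasts, 2 genes had risen at week 2 (3.81% of all genes) and 4 at week 4 (5.84%), and 0 had fallen in either (5.59% and 7.52%). The median log2 fold change of the 9 at week 4 against day 3 was 1.76, against 0.04 over all genes, and all 9 values were above 0. The week 4 count was larger without day 3 replicate 1, and smaller without day 3 replicate 2 or either week 4 library. The week 2 count was also larger without day 3 replicate 1. It was smaller without day 3 replicate 2, either day 7 library or week 4 replicate 2, and both week 2 calls ended with any 1 week 2 library left out.

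**Figure D3:**
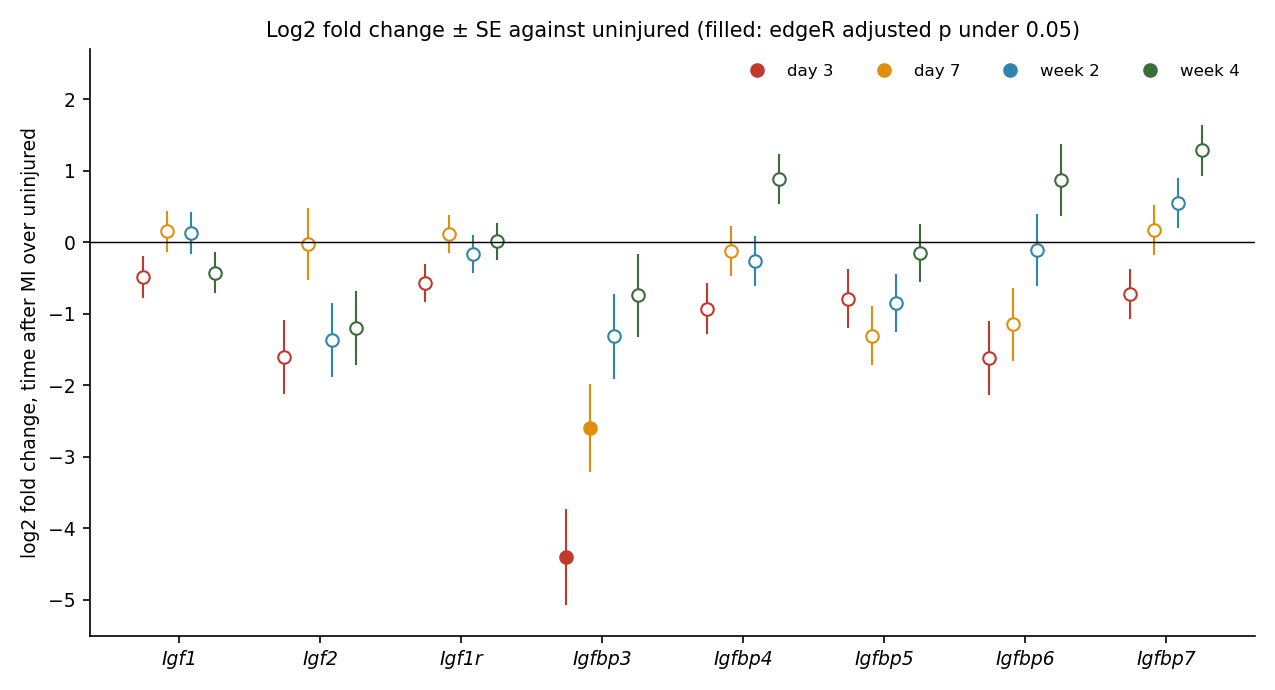
Log2 fold change of each time after MI over uninjured hearts (y axis) for 8 of the genes (x axis), from edgeR, with bars of 1 SE; filled points passed at an adjusted p under 0.05. Igfbp2 is left out because its uninjured libraries had 0 counts. Igfbp3 at day 3 and day 7, at −4.39 and −2.60, are the filled points.

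Across the 10 libraries, the highest Pearson's r of log2 CPM among the 36 pairs of members was 0.87, for Igfbp3 and Igfbp6. It was 0.86 for Igfbp4 and Igfbp6, 0.83 for Igfbp4 and Igfbp7, 0.77 for Igfbp3 and Igfbp4, 0.72 for Igfbp6 and Igfbp7 and 0.60 for Igfbp3 and Igfbp7. Igfbp5 had an r of 0.64, 0.61, 0.57 and 0.39 with Igfbp3, Igfbp4, Igfbp6 and Igfbp7. Among pairs with a ligand or receptor gene the highest were 0.70 for Igf1r and Igf2 and 0.67 for Igf1r and Igfbp3. Igfbp2 had an r between −0.35 and 0.41 with each other member. These values describe 10 libraries that share groups and scaling, and no test was made of them.

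Among 7097 other genes with a mean log2 CPM of 4 or more, the closest in pattern to Igfbp3 were Rab22a, Smim14 and Pttg1ip, with an r of 0.98, 0.98 and 0.97 over 10 libraries. Rab22a, a small GTPase gene, stood at 45.2 and 41.2 CPM in uninjured hearts, 17.2 and 11.5 at day 3, 28.0 and 21.5 at day 7, 39.7 and 30.5 at week 2, and 40.7 and 35.0 at week 4. The closest to Igfbp2 were Rab31, Lrg1 and Sfrp1, a secreted Wnt inhibitor gene (r of 0.97, 0.94 and 0.94). Osbpl11, Snx18 and Pik3r2, a PI3K regulatory subunit gene, were closest to Igfbp4 (0.98, 0.97 and 0.96), and Slc1a5, Naa60 and Mxra8 to Igfbp6 (0.97, 0.96 and 0.96). App, Tns1 and Tspyl1 were closest to Igfbp7 (0.93 each), and Ntn1, Ugp2 and Spg20 to Igfbp5 (0.92, 0.90 and 0.90). Pcgf3, Dvl3 and Clk4 were closest to Igf1 (0.88, 0.87 and 0.87), Tcn2, Dpt and B3galnt1 to Igf2 (0.91, 0.88 and 0.85), and Apc, Hivep2 and Idnk to Igf1r (0.92, 0.90 and 0.87). Each gene was picked for an r among the 3 highest of 7097 over only 10 libraries. Such a choice gives high values by itself, and no test was made of them.

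Genes that govern IGF availability were listed beside the members: 12 in all, of which 8 were tested. For this and the following lists, edgeR called 11.8%, 7.15%, 1.89% and 2.32% of all genes at day 3, day 7, week 2 and week 4, and DESeq2 20.1%, 13.8%, 5.47% and 6.46%. These shares are at adjusted p and do not apply to counts at an unadjusted p. Adam12, a metalloprotease whose human protein cuts IGFBP3 and IGFBP5, stood at 65.5 and 72.3 CPM at day 3 and 28.8 and 27.6 CPM at day 7, against 1.97 and 1.55 CPM in uninjured hearts. It rose at both times, by 5.28 ± 0.48 and 3.99 ± 0.45 on the log2 scale (edgeR adjusted p = 7.2e-05 and 0.00030), and both calls held without any 1 library. Htra1, a secreted serine protease gene, stood at 87.6 and 66.0 CPM at day 3 against 208 and 213 CPM in uninjured hearts, and fell by 1.45 ± 0.32 on the log2 scale (edgeR adjusted p = 0.011), a call lost without day 3 replicate 2. So 1 of 8 rose and 1 fell at day 3, 1 rose at day 7, 1 rose at week 2 and 0 passed at week 4 in edgeR, where 1 had an unadjusted p under 0.05 and DESeq2 called 1. The gene that rose at week 2, named after its values were seen, was Stc2, an inhibitor of PAPP-A, at 84.5 and 92.8 CPM against 28.8 and 19 CPM in uninjured hearts (edgeR adjusted p = 0.028), which did not hold with replicate 2 of either group left out. Pappa, which encodes PAPP-A, stood at 15.5 and 20.9 CPM at day 7 against 4.16 and 3.97 CPM in uninjured hearts and did not pass (edgeR adjusted p = 0.093). Igf2r, the receptor that clears IGF2, stood at 67.5 to 119 CPM and did not pass at any time. The hepatic binding protein gene Igfbp1, the acid-labile subunit gene Igfals and Igfbpl1 had 0 counts in every library.

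Downstream of the receptor, 28 signalling genes were tested, of which 1 passed at day 3, 2 at day 7, 0 at week 2 and 1 at week 4. Foxo1, a transcription factor gene whose product AKT inactivates, stood at 8.61 and 11.4 CPM at day 3 against 41.8 and 36.3 CPM in uninjured hearts, and fell by 1.97 ± 0.43 on the log2 scale (edgeR adjusted p = 0.012). It was the only one of the 28 to pass at day 3, and leaving out replicate 1 of day 3 or of uninjured hearts ended the call. At day 7 the receptor adaptor genes Grb10 and Grb14 rose, at 376 and 275 CPM against 152 and 120.2 CPM for Grb10 and 37.1 and 29.1 CPM against 12.8 and 13.4 CPM for Grb14. Their log2 fold changes were 1.26 ± 0.28 and 1.33 ± 0.34 (edgeR adjusted p = 0.019 and 0.036). Leaving out replicate 1 of day 7 or replicate 2 of uninjured hearts ended the Grb10 call, and any 1 library of day 7, week 4 or uninjured hearts the Grb14 call. At week 2, 0 of 28 passed in edgeR, while 3 had an unadjusted p under 0.05 and DESeq2 called 1. At week 4 Grb14 alone passed, at 43.4 and 60.7 CPM against 12.8 and 13.4 CPM in uninjured hearts (log2 fold change 1.99 ± 0.35; edgeR adjusted p = 0.011), which did not hold with replicate 2 of week 4 or any 1 uninjured library left out.

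Of 8 tested genes that act on Igf2 or its RNA, Zfp57, which encodes a zinc finger protein that keeps methylation at imprinted regions, was the only one called. It stood at 13.1 and 18.1 CPM at day 3, 20.1 and 7.78 CPM at day 7 and 10.8 and 16.1 CPM at week 2, against 0.746 and 1.5 CPM in uninjured hearts. All 3 rises passed (log2 fold changes 3.79, 3.63 and 3.57; edgeR adjusted p = 0.0067, 0.013 and 0.030). At week 4, 0 of the 8 passed in edgeR, while 2 had an unadjusted p under 0.05 and DESeq2 called 2. Each call was lost without uninjured replicate 1, that of day 7 also without day 7 replicate 1, and that of week 2 also without uninjured replicate 2 or week 2 replicate 2. Of 14 tested imprinted genes, 4 fell and 0 rose at day 3, 4 fell and 2 rose at day 7, 1 fell at week 2 and 0 passed at week 4 in edgeR, where 5 had an unadjusted p under 0.05 and DESeq2 called 1. Of the 2 that rose at day 7, 1 was Grb10, already counted among the signalling genes. Cdkn1c, a cell cycle inhibitor gene, stood at 12.2 and 4.16 CPM at day 3 and 15.5 and 5.73 CPM at day 7, against 76.4 and 76.1 CPM in uninjured hearts. Its log2 fold changes were −3.22 ± 0.56 and −2.84 ± 0.55 (edgeR adjusted p = 0.0034 and 0.0098), of which the second was lost without day 7 replicate 2. Decorin (Dcn), also a fibroblast marker, had log2 fold changes of −1.66 ± 0.29 at day 3 and −1.57 ± 0.29 at day 7 (edgeR adjusted p = 0.0032 and 0.0068), the second lost without day 7 replicate 2. Peg3 fell by 1.49 ± 0.29 on the log2 scale at day 3 (edgeR adjusted p = 0.0053), lost without day 3 replicate 2. Mest rose to 176 and 170 CPM at day 7 against 54.3 and 58.8 CPM in uninjured hearts (edgeR adjusted p = 0.037), a call lost without either library of uninjured hearts, day 3 or day 7.

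Chromatin at the 9 loci was read from the authors' peak lists, 1 list per library, with 63882 to 107774 peaks on the chromosomes used. Peaks of all lists that touched were joined into regions, and a region was called gained at a time when both libraries of that time and neither uninjured library had a peak in it, and lost in the reverse case. No test was made, since the lists hold no read counts. Of the 169 member regions, 50 had a peak in all 10 libraries (29.6%, against 27.2% of all regions).

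With the peak lists at full length, gains at the IGF loci were most frequent at day 3 and fewer at each later time. Of the 169 regions, 23 were gained at day 3 (13.6%, against 17.2% of all regions), 8 at day 7 (4.73% against 9.28%), 7 at week 2 (4.14% against 5.08%) and 3 at week 4 (1.78% against 2.76%). Lost were 3 at day 3 (1.78% against 1.09%), 4 at day 7 (2.37% against 2.37%), 6 at week 2 (3.55% against 2.66%) and 6 at week 4 (3.55% against 3.68%). By this rule the share gained at IGF loci was below that of all regions at each time, with no test of the difference. The direction turned at week 2 with a 10 kb flank (5.46% against 5.08%) or without replicate 1 of week 2 (12.4% against 9.65%). With a peak required over 50% of a region it turned at week 2 (4.73% against 4.22%) and week 4 (3.55% against 2.68%), and without replicate 2 of week 4 it turned at week 4 (10.1% against 6.94%). The day 3 lists were also the longest, and with all lists cut to the length of the shortest, 3 of 112 regions were gained at day 3 (2.68%, against 8.98% of all regions) and 7 lost (6.25% against 5.88%). With lists so cut, 3 were gained at day 7, 2 at week 2 and 3 at week 4, so gains at the IGF loci did not fall over time. The shares of all regions were then 6.72%, 4.82% and 3.77%.

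**Figure D4:**
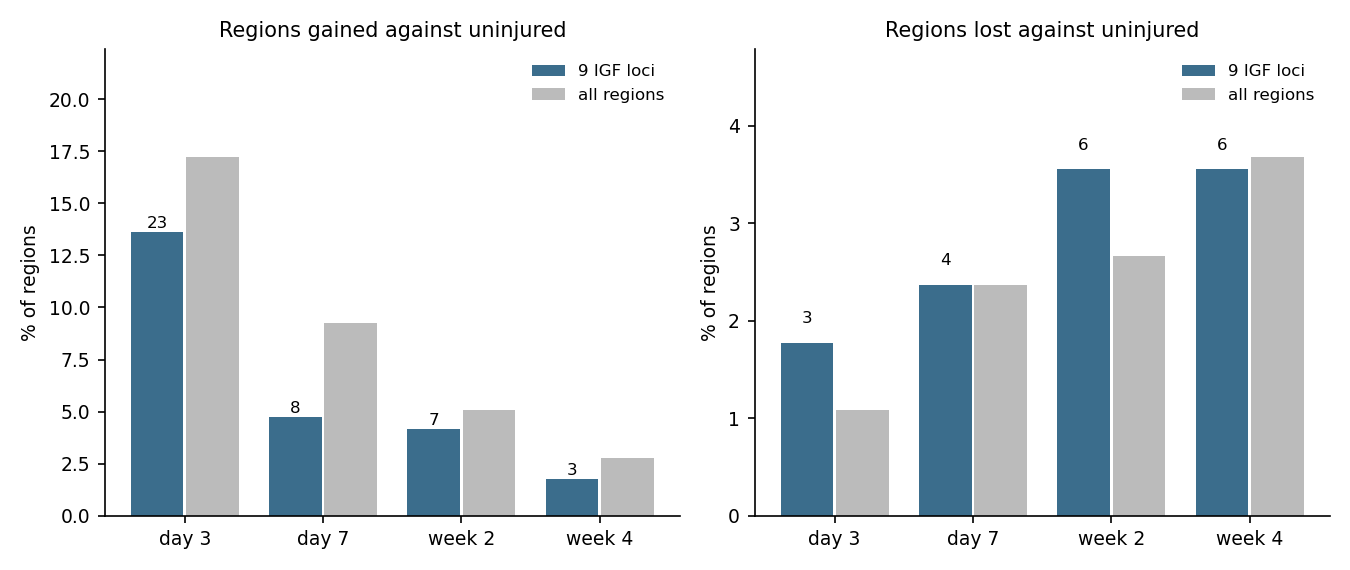
Percentage of regions gained (left) and lost (right) against uninjured hearts (y axes, from 0) at each time after MI (x axis), for the 169 regions at the 9 IGF loci beside all 143246 regions; numbers over the bars are counts of IGF regions. Gains at IGF loci were 23 at day 3 and 3 at week 4, and by this rule were a smaller share than over all regions at each time.

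At Igfbp3 the start region, chr11:7209626-7216756, was open in all 10 libraries, including those of day 3, when the RNA was lowest. A region centred 29.2 kb upstream, chr11:7242622-7243639, had a peak in both day 3 libraries and in none of the other 8, with an authors' −log10 q of up to 24.1. Regions 13.7 kb downstream of the start, within Igfbp1, and 52.7 kb downstream, within Adcy1, showed the same pattern with an authors' −log10 q of up to 3.43 and 4.40. Regions centred 21.0 and 24.6 kb upstream had a peak in 9 libraries, all but week 4 replicate 1, and were chosen here after their values were seen. Within both day 3 lists, both upstream regions carried a higher authors' −log10 q than the Igfbp3 start region. In day 3 replicate 1 they stood at 114 and 87.7 against 75.1 for the start region, and in day 3 replicate 2 at 108 and 111 against 95.4. In each of the other 8 lists the start region was the higher, as in uninjured replicate 1, with 11.6 and 5.39 against 48.8, and uninjured replicate 2, with 12.2 and 11.3 against 76.6.

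Igfbp2 and Igfbp5 are neighbours on chromosome 1, and 8 regions lay in the windows of both. The region over the Igfbp2 starts, chr1:72823766-72825991, had a peak in 8 of 10 libraries, missing in uninjured replicate 1 and week 4 replicate 1. Its strongest peak was in day 3 replicate 2, with an authors' −log10 q of 31.4, while Igfbp2 RNA had 21 and 0 counts at day 3. A region within Igfbp2, 15.4 kb from the start (chr1:72839238-72840553), was gained at day 3 and day 7 and absent from all other libraries. A region between genes, 14.7 kb upstream of Igfbp5 (chr1:72888978-72890122), was present in both uninjured libraries and in 1 of day 7, and was lost at day 3, week 2 and week 4. The Igfbp5 start region was open in all 10 libraries.

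**Figure D5:**
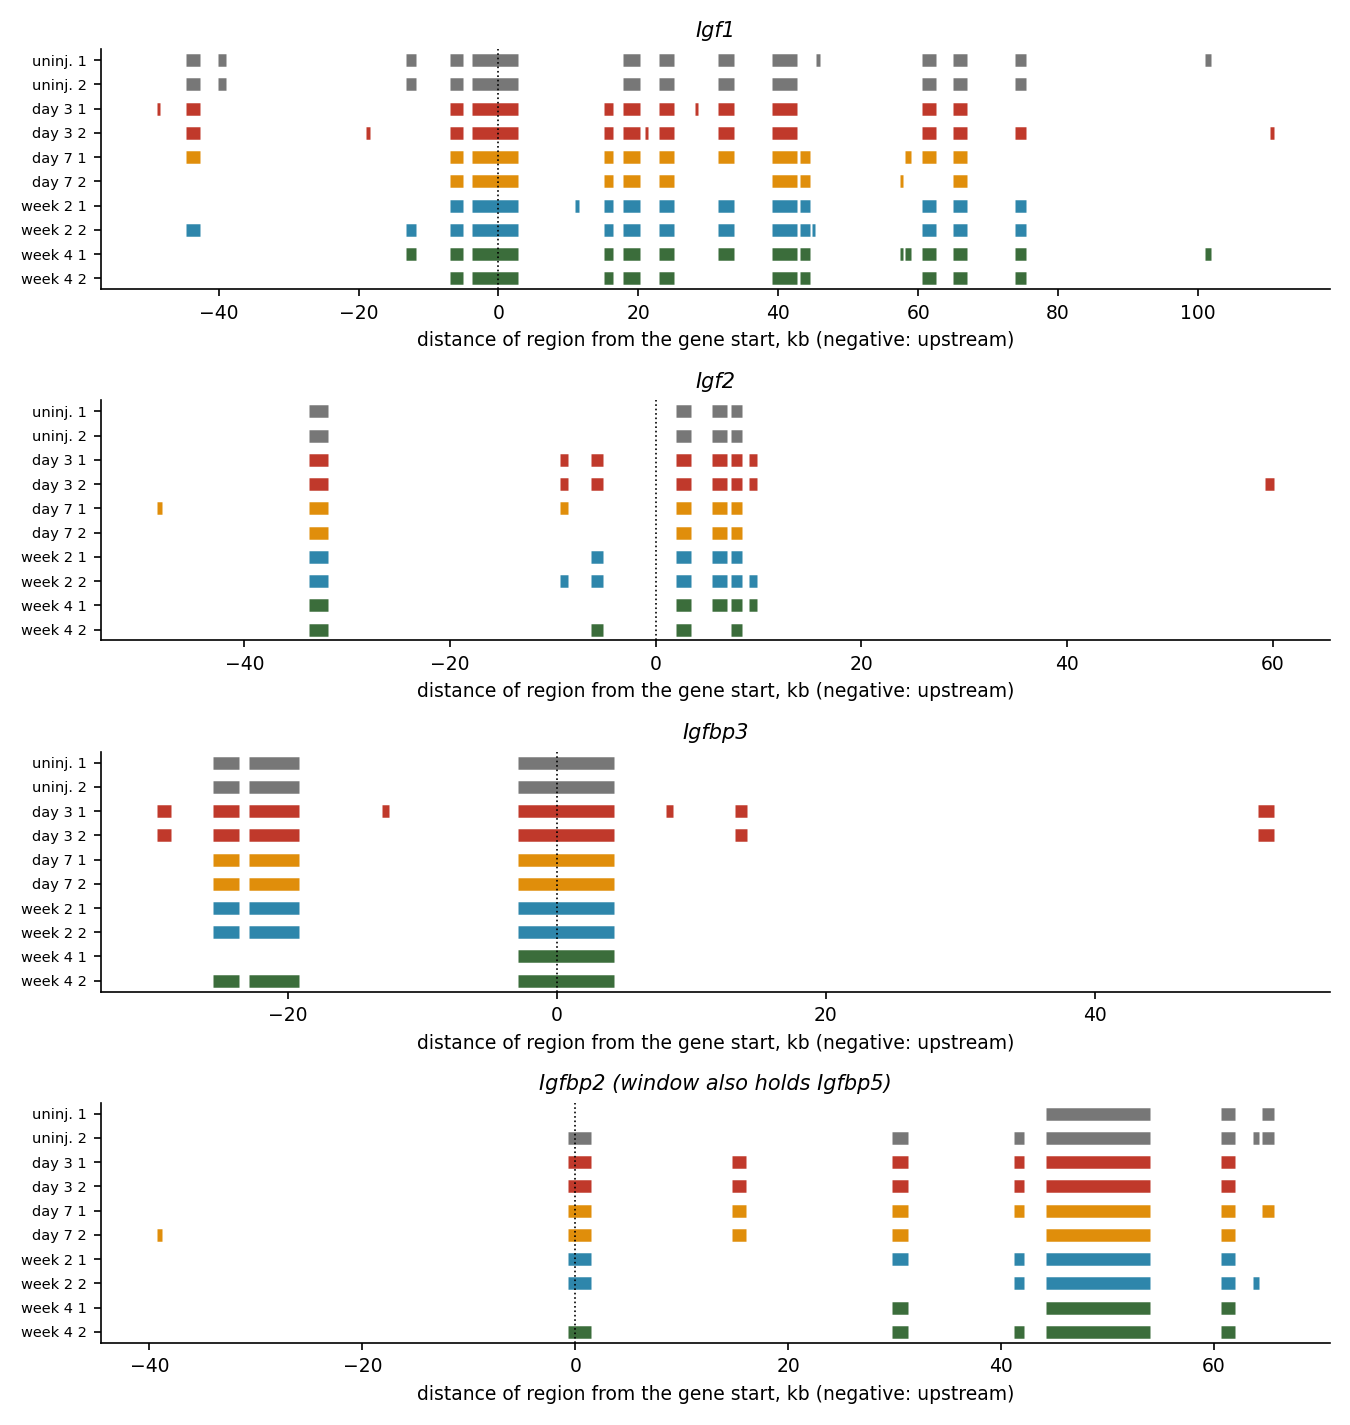
Regions with a peak in each ATAC-seq library (rows, by time) at the Igf1, Igf2, Igfbp3 and Igfbp2 loci, drawn to scale, apart from a minimum width for the narrowest, against distance from the gene start in kb (x axis; negative is upstream, dotted line the start). The Igfbp3 start is covered in all 10 libraries, and the region 29.2 kb upstream of it in both day 3 libraries alone.

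At Igf1 the start region, chr10:87857377-87863892, was open throughout. A region in the gene 15.8 kb from the start (chr10:87876269-87877518) was gained at day 3 and had a peak in all 8 libraries after MI. A region 43.7 kb upstream (chr10:87816462-87818450) had a peak in both libraries of uninjured hearts and day 3 and was lost at week 4, and 1 at 74.6 kb (chr10:87934939-87936495) was lost at day 7. Igf1 RNA passed no test in the main edgeR fit at any of these times.

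Igf2 has several RefSeq starts, and they differed. The 250 bases before the start at 142658804 were covered by a peak in all 10 libraries. Those before the outermost start, at 142666816, were covered in none. Those before the starts at 142661271 and 142657496 were covered in 2 libraries each, for the last in both libraries of day 3. Of 9 regions at the locus, 3 were gained at day 3, in the gene 9.4 kb from its outermost start (chr7:142656951-142657784) and 5.7 and 8.9 kb upstream (chr7:142671920-142673117 and chr7:142675294-142676091), with an authors' −log10 q of at most 8.88. Igf2 RNA stood below uninjured hearts in both day 3 libraries.

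Igf1r, the longest of the genes, had 62 regions and 13 of the 23 gains at day 3. A region 196 kb into the gene (chr7:68147034-68149245) was gained at day 3 and kept a peak in all 8 libraries after MI. Regions 86.8 kb (chr7:68038661-68039402) and 242 kb (chr7:68193509-68194850) into the gene went the other way: the first was lost at day 7, week 2 and week 4, and the second at week 2. At Igfbp6 1 region, 18 kb from the start within Soat2 (chr15:102161257-102163120), was gained at day 3. At Igfbp7, of 26 regions, 1 within Noa1 (chr5:77301005-77302200) was gained at day 3, day 7 and week 2, 1 within Polr2b (chr5:77340388-77341679) at day 7, and 1 upstream of the gene by 28.2 kb (chr5:77435822-77436723) was lost at week 2 and week 4. The start regions of Igf1r, Igfbp4, Igfbp6 and Igfbp7 had peaks in all 10 libraries.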

How the data were processed

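RNA-seq and ATAC-seq of sorted Tcf21-lineage fibroblasts were used, with 2 libraries per group and assay, grouped by their labels. The deposited RNA values are expected counts, unscaled estimates of the reads of each Ensembl gene in each library, and 11.7% of them are not whole. STAR 2.5.3a, Bowtie2 2.3, MACS2, DESeq2, FastQC, Trim Galore 0.6 and the builds mm10 and GRCm38 are named in the submitters' processing notes, with no role for each. The sources used here name no counting program, strand setting or peak threshold. By the narrowPeak column order, the deposited lists hold, for each peak of 1 library, a summit offset, the −log10 p and −log10 q and a ratio, the fold enrichment. The deposited score equals that −log10 q, multiplied by 10 and cut to a whole number.

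Counts were rounded and fitted in R 4.3.3 with edgeR 4.0.16: filterByExpr (14968 genes kept; 7472 had no count), TMM scaling, then robust quasi-likelihood models with a mean per group over the 10 libraries, leaving 5 residual degrees of freedom. P-values were adjusted over all genes by Benjamini-Hochberg, with a threshold of 0.05. Fold changes carry the SE of that model, and levels the SD over 2 libraries. Correlations used log2 CPM with a prior count of 2. DESeq2 1.42.0, the scaling, the filter, the groups fitted, a replicate block and leaving out each library were alternatives. The fit was tested on simulated data. Reads amplified by PCR are not independent molecules, so the floor of 3 counts covers counting error only. Without exon lengths or a strand setting, levels were not compared between genes, and reads of a gene and its antisense partner, as for Igf1 and Igf2, cannot be told apart.

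Regions on chromosomes 1 to 19 and X joined peaks that share at least 1 base. The members and gene lists were chosen with earlier results of these data known. Named were all members, of each other list up to 4 genes that passed at day 3 or day 7 by size of change, per member the 3 genes closest in pattern, and per locus the start region and up to 3 gained or lost regions by −log10 q. Gene starts and promoter windows are those of RefSeq (GRCm38.p6), which gave windows for all 9 members.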

Additional observations from a re-analysis of the deposited data

Results flagged for a closer look

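In 6 contrasts of a later stage with day 3, both set against the same uninjured libraries, the change in a binding protein gene differed between the stages by edgeR's quasi-likelihood test of the difference itself. All 6 are contrasts added after the data were seen. At week 2 against day 3 the difference was 3.08 on the log2 scale for Igfbp3 and 1.28 for Igfbp7 (edgeR adjusted p = 0.017 and 0.042). At week 4 against day 3 it was 3.66 for Igfbp3, 1.81 for Igfbp4, 2.5 for Igfbp6 and 2.01 for Igfbp7 (edgeR adjusted p = 0.0070, 0.0073, 0.015 and 0.0042). In each contrast but that of Igfbp7 at week 4, the day 3 libraries lay further apart on the log2 scale than those of the later stage, and day 3 replicate 2 was the lower for each gene.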

How the results depend on the processing

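Among log2 fold changes of single genes, 315 of 365 kept direction and side of the threshold under other tools, scalings, filters and fits, 47 passed only there and 3 changed sign. Leaving out 1 library, 581 of 660 did, 33 passed only there, 31 lost the call and 15 changed sign. The causes were not tested. Sign changes outside that were of Igf1r at week 4 against uninjured hearts, −0.00505 with RLE scaling, −0.0410 with library totals and −0.00485 with DESeq2. With a library left out, the ranges over sign changes were 0 to 7.49 for Igfbp2 at day 3, −0.16 to 0.39, −0.0773 to 0.26 and −0.13 to 0.52 for Igf1, Igf1r and Igfbp7 at day 7, −0.22 to 0.42 and −0.77 to 0.35 for Igf1 and Igfbp6 at week 2, −0.19 to 0.18 and −0.41 to 0.17 for Igf1r and Igfbp5 at week 4, and −0.0551 to 1.37 for Igfbp6 at day 7 against day 3. DESeq2 without a filter called 5 members at day 3, 2 at week 4, 3 at day 7 against day 3, 1 at week 4 against week 2, 3 at week 4 against day 7 and 4 at week 2 against day 3 (for the last, 18.1% of all genes in DESeq2). EdgeR without a filter called 7, 4, 2 and 4 at the 4 times, 4 at day 7 and 5 at week 2 against day 3, 2 at week 2 and 5 at week 4 against day 7, and 2 at week 4 against week 2. Its shares of all genes were 14%, 10.1%, 4.36% and 5.32% at the 4 times. For the other contrasts, in the same order, they were 4.46%, 12.2%, 5.63%, 7.15% and 5.21%. With only the groups compared, 1 passed at week 4 (4.8% of all genes). In the other lists DESeq2 called 4, 2 and 1 availability genes at day 7, week 2 and week 4, 4 and 1 signalling genes at day 3 and week 2, 2 Igf2 regulators at week 4, and 3 and 1 imprinted genes at week 2 and week 4.

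Same-numbered libraries did not deviate together (correlations of −0.018 to 0.029), and the main fit did not pair them by number. Whether libraries shared a batch that moved single genes was not tested. With a replicate block, 2 members were called at day 3, 1 at week 4 and 1 at week 4 against day 7 (11.9%, 2.42% and 2.87% of all genes).

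Leaving out 1 library changed the count of members called against uninjured hearts at each time. It also changed the counts of each later stage against day 3, and of week 4 against week 2 and day 7. Counts of availability genes, signalling genes and Igf2 regulators changed at each time, and those of imprinted genes up to week 2. The share of all genes called changed with the library as well. Regions gained ranged over 26 to 42, 11 to 20, 9 to 21 and 4 to 17, and lost over 3 to 6, 4 to 10, 6 to 10 and 7 to 10, since fewer libraries then have to meet the rule.

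With −log10 q of 5 or more, 15, 1, 3 and 0 of 110 regions were gained at the 4 times (13.6%, 0.909%, 2.73% and 0%, against 20.3%, 8.78%, 5.56% and 2.20% of all regions). With lists of equal length, 3, 3, 2 and 3 of 112 were gained at the 4 times (all regions 8.98%, 6.72%, 4.82% and 3.77%). Lost then were 7 and 9 at day 3 and day 7 (all regions 5.88% and 6.50%). With a 10 kb flank, 1, 3 and 2 of 110 were lost at day 3, week 2 and week 4 (0.909%, 2.73% and 1.82%, against 1.09%, 2.66% and 3.68% of all regions). With 50% of a region covered by a peak, 6, 11, 12 and 11 of 169 were lost (all regions 1.69%, 4.03%, 4.67% and 4.79%) and 6 gained at week 4. With 2 libraries a group, a missed threshold does not show that levels are equal.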
